A study of Caenorhabditis elegans with 2 samples.

Results

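The genes described here are gpd-1, gpd-2, gpd-3 and gpd-4, which encode glyceraldehyde-3-phosphate dehydrogenase (GAPDH) in Caenorhabditis elegans, and mai-1, which lies next to gpd-2. They were looked for by symbol in the gene-name column of a list of ATFS-1 chromatin immunoprecipitation peaks. Of the 5 genes, 3 were named, all at 1 peak of the 1005 in the list, and gpd-1 and gpd-4 were named at none. Over all 19971 protein-coding genes of the nuclear chromosomes, 3.63% were named at a peak by symbol. Since gpd-2, mai-1 and gpd-3 shared a peak, the 3 names are 1 measurement.

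An antibody library and a control library, 1 of each, were compared by chromatin immunoprecipitation followed by sequencing, which counts DNA fragments that come down with a protein. Both came from whole-worm lysate of wild-type animals raised from the egg on spg-7(RNAi) food, which silences a mitochondrial protease gene, and harvested as L4 larvae at about 48 h. For one library an antibody against ATFS-1 was added and for the other none, and the second served as control. All worms were under spg-7(RNAi), so the data hold no unstressed comparison, and all tissues were pooled. The caller kept 10992796 antibody tags (sequenced fragment ends) and 10583049 control tags after removal of duplicates, per the file headers, and the header puts the libraries in different sequencing projects. With 1 library per condition no value has a replicate check and no test was made.

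GAPDH carries out the oxidation step of glycolysis, reducing NAD to NADH, and works in the reverse direction in gluconeogenesis. In C. elegans the genes form 2 pairs of close copies. gpd-1 and gpd-4 are known for expression in the embryo, and gpd-2 and gpd-3 as the main forms of later stages. mai-1, gpd-2 and gpd-3 are a classic worm operon, transcribed in that order into 1 precursor RNA that is cut into separate messages by trans-splicing. mai-1 encodes a relative of the mitochondrial inhibitor protein of ATP synthase. ATFS-1 is a bZIP transcription factor that is taken up into healthy mitochondria and reaches the nucleus when import falters.

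The operon peak spanned 5140 bp on chromosome X (3111880 to 3117019 in the coordinates of the list, for which no source used here names a genome build). It held 2419 antibody tags (95% exact Poisson interval 2324 to 2517, covering counting error only). This is 0.0220% of the filtered antibody library (95% exact binomial interval 0.0211 to 0.0229). At most 1 tag was kept per position, which neither interval takes into account. The fold enrichment of the operon peak, by which the caller sets antibody tags against the level it expects from the control, was 7.5. Of all listed peaks, 13.6% were at 5-fold or more and 3.88% reached the fold of the operon peak. The false discovery rate that the caller gave it was 0, the value of 15 peaks, 9 of them on X. Of the 1005 listed peaks, 174 were on X. A rate of 5% or less was given to 3.18% of the listed peaks. All of these are the authors' values for single peaks, and the list gives no count of control tags.

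Its place in the list depended on the measure. By tags per kb, which divides tags by peak length, it stood second of 1005 with 471 tags per kb. The median was 204 over all peaks and 227 among the 320 peaks of 2000 bp or more. Only the peak at hsp-60, the mitochondrial chaperonin gene, was denser, at 741 tags per kb, and the peaks at yme-1 (458), hsp-6 (443) and cyc-2.1 (419) came next. These 4 comparison peaks were picked after their values were seen. Tags per kb counts antibody tags alone, at most 1 per position, and need not follow fold. The hsp-60 peak was number 304 by fold, at 3.79-fold, and no false discovery rate was read for it. Those at yme-1 (13.08-fold), hsp-6 (11.85-fold) and cyc-2.1 (9.66-fold) were above the operon peak by fold. By total tags the operon peak was sixth, by length it was number 24, and by fold number 39. Its tag density was 3.85 times the mean over the effective genome, 122 tags per kb, while the median peak was at 1.67 times.

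Relative to the median peak, density and fold were raised by similar factors, 2.31 times for tags per kb and 2.30 times for fold. Tags per kb divided by fold came to 62.7 for the operon peak and 62.5 for the median peak, which put it at rank 496. The caller's fold need not cover the whole region, so this quotient is a rough guide and no count of control tags. By score, which is read here as minus 10 times log10 of the caller's p-value, it shared the third place among the listed numbers. Exactly 3100 was listed for 4 peaks, namely the operon peak, hsp-6, zk470.2 and H28G03.2, so the score does not order these 4. They ranged from 7.5-fold to 11.85-fold and from 2186 to 3229 tags. No source used here says whether 3100 was computed or stands for a p-value too small to compute. Whether the 2 peaks listed above 3100 had smaller p-values is thus not known. The next score below was 2918.

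**Figure D1:**
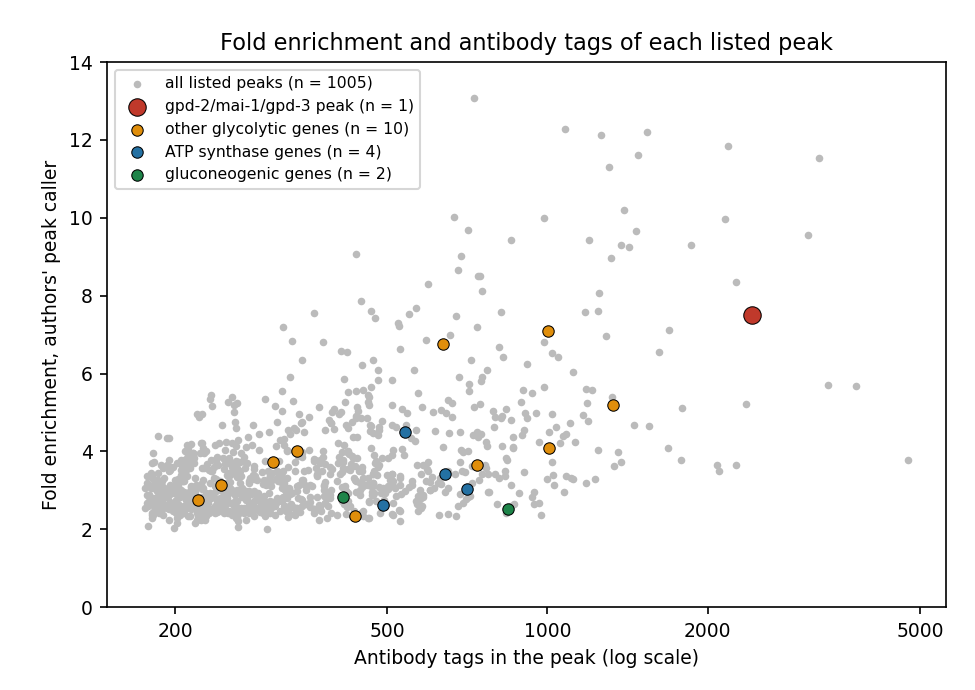
Fold enrichment (y axis, the caller's ratio) against antibody tags in the peak (x axis, log scale) for the 1005 listed peaks in grey, with the operon peak in red and peaks at other glycolytic, ATP synthase and gluconeogenic genes in colour. The operon peak, with 2419 tags at 7.5-fold, lies to the right of all the other coloured peaks and above them.

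The summit, the point of highest signal, was 3901 bp from the lower end of the operon peak and 1239 bp from the upper end. This is at 75.9% of the length, against a median of 51.2% and quartiles of 40.6% and 61.5% over all peaks. Among the 320 peaks of 2000 bp or more the quartiles were wider, 29.2% and 71.6%, and the operon peak was still outside them. In the RefSeq gene table of assembly WBcel235 the order from lower to higher position is gpd-3, gpd-2, mai-1, with no other protein-coding gene between them. The list names them in another order, with mai-1 in the middle. The off-centre summit therefore lay towards the end of the peak on the side of mai-1, the first gene of the operon. Whether it falls within mai-1, in its promoter or beyond was not analysed here, since the list's build is unknown.

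A peak with several names was common, but 1 like this was not. There were 100 peaks with 2 or more names, and the operon peak held the most tags of them and stood at number 4 by fold. The next highest had 2152 tags, at rpl-15 and K11H12.8. Only 1 other peak carried 3 names, at Y71H2AM.4, Y71H2AM.5 and Y71H2AM.20 on chromosome III. That peak had 476 tags at 2.72-fold, with 193 tags per kb.

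Within 100 kb of its summit on either side, the list held 4 other peaks. The window thus held 5 peaks in all, but the operon peak is in it by construction. The mean over the effective genome for that width is 2.23, and the count to set beside it is the 4 others. The nearest listed peak above was 10.2 kb away, at spc-1, which encodes alpha-spectrin of the membrane skeleton and is the next protein-coding gene after mai-1 in the gene table. It had 404 tags at 3.71-fold, so the operon peak held 5.99 times its tags. Beyond it, the following peak, at C18B2.4, was 488 kb from the operon peak. Below, the nearest peak carried no gene name and was 75.2 kb away, with 263 tags at 3.47-fold. The closest strong peak was at aqp-7, a gene of the aquaporin family, 84.9 kb below, with 1858 tags at 9.31-fold and a false discovery rate of 0. None of gpcp-1, K10B3.5, ztf-13, sec-3 and wrt-2, the 5 protein-coding genes next to gpd-3 on its lower side, was named at a peak.

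**Figure D2:**
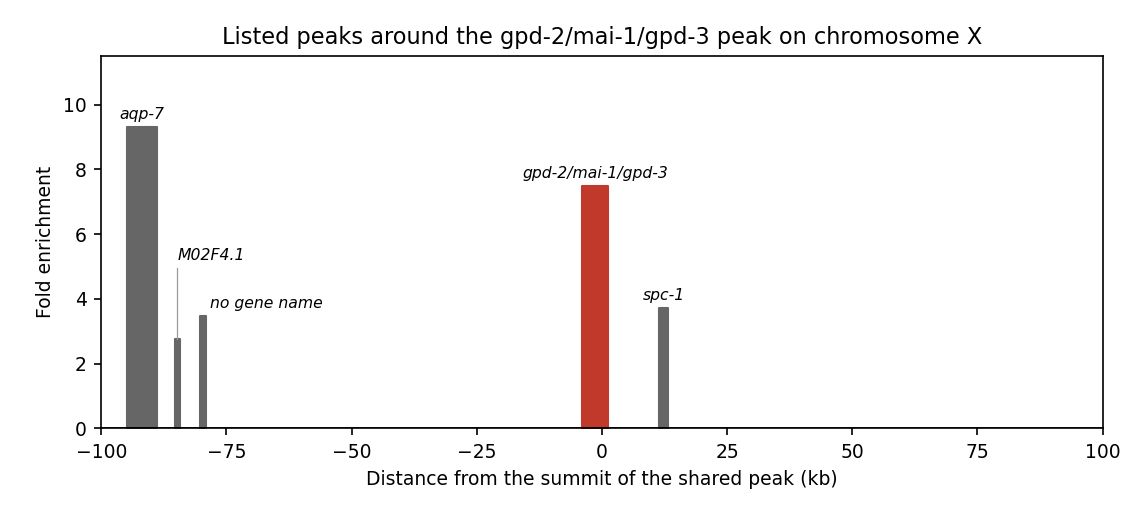
Listed peaks within 100 kb of the summit of the operon peak, drawn to scale by distance from that summit (x axis, kb) with the height showing fold enrichment (y axis). The window holds 5 peaks, and the operon peak (red) stands between a low peak at spc-1 and a group of 3 peaks at its lower edge, led by aqp-7 at 9.31-fold.

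On chromosome II, gpd-1 and gpd-4 were named at no peak under either their symbols or their locus names, T09F3.3 and F33H1.2. By symbol, locus name or synonym, 3.89% of the protein-coding genes of chromosome II and 5.13% of those of X were named. Against a background this low, 0 of 2 genes says little about the pair. The surroundings of both were read from the order of genes, a choice made with the values in view. gpd-1 sat between named peaks. The peak at T09F3.2, 2 protein-coding genes away on its lower side, had 1117 tags at 6.04-fold (number 71 by fold) with a false discovery rate of 2.86%. The peak at eif-2A, listed as E04D5.1 4 genes away on its upper side, had 266 tags at 3.36-fold. These 2 peaks follow each other in the list, 24.8 kb apart, with no listed peak between them.

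None of the 10 protein-coding genes nearest to gpd-4 was named at a peak. They include daf-19, the regulator of cilium genes, on the lower side and wbp-11 on the upper. With 3.89% of the protein-coding genes of chromosome II named, 0 of 10 says little about this region. The nearest named genes were lec-2, a galectin gene, 30 genes below (184 tags, 2.55-fold) and atad-3, which encodes a mitochondrial membrane ATPase, 20 genes above (916 tags, 6.25-fold). Their peaks are also neighbours in the list, 229.9 kb apart. The list has 4 unnamed peaks among the 139 on chromosome II, and none of them lies in either interval. A peak had to pass the caller's p cutoff of 1e-05 to be listed, so weaker signal at gpd-1 or gpd-4 was not analysed here. No source used here says how tags matching more than 1 of the near-identical gpd copies were placed. The part this has in the counts at each copy was not tested, and levels were not compared between copies.

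**Figure D3:**
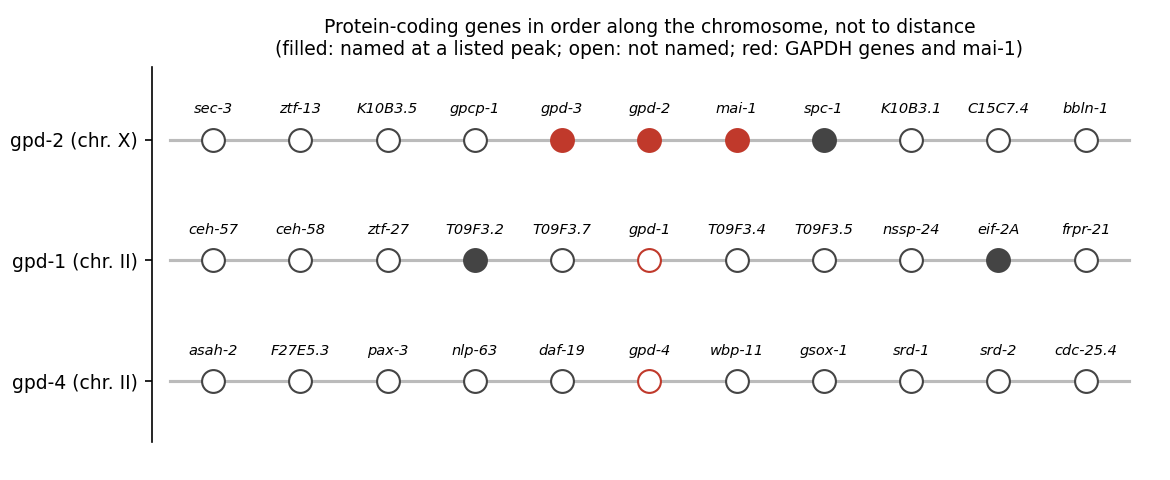
Protein-coding genes in order around gpd-2, gpd-1 and gpd-4, with 5 on each side and no distances shown. Filled circles are genes named at a listed peak and red marks the GAPDH genes and mai-1. All 3 operon genes are filled and next to each other, gpd-1 is open with 2 of its 10 neighbours filled, and gpd-4 is open with none of 10 filled.

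Among the listed peaks at glycolytic genes, the operon peak was highest by fold, tags and tags per kb. It is also named for mai-1, which is no glycolytic gene, and its signal was not divided between the 3 genes. The list of 15 other glycolytic genes had 4 named by symbol and 9 when locus names were matched too, against 4.53% of all protein-coding genes on that rule. These 9 genes had 10 peaks. All 10 had lower fold, fewer tags and fewer tags per kb than the operon peak. Their median was 3.87-fold, against 3.26-fold over all 1005 peaks, and 537 tags. This list was chosen with earlier results of these data known, so the counts describe and do not test it.

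Taken along the pathway, hxk-1, a gene for hexokinase, the enzyme of the first step, had the lowest fold of these 10 peaks, 2.33-fold with 436 tags, listed under its locus name F14B4.2. The other hexokinase genes, hxk-2 and hxk-3, and the phosphofructokinase genes pfk-1.1 and pfk-1.2 were named at no peak. gpi-1, glucose-6-phosphate isomerase, had a weak peak of 2.76-fold and 221 tags. The aldolase genes, whose enzyme splits the sugar in the middle of the pathway, both had one, aldo-1 at 5.19-fold with 1327 tags and aldo-2 at 3.64-fold with 736 tags. tpi-1, triosephosphate isomerase, which feeds GAPDH its substrate, was at 4.0-fold with 339 tags. The operon peak thus held 1.82 times the tags of aldo-1, the next most tagged.

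Below GAPDH, the gene for the enzyme that takes its product, pgk-1, phosphoglycerate kinase, was named at no peak. ipgm-1, phosphoglycerate mutase, had 2 peaks, at 6.76-fold (638 tags) and 3.15-fold (244 tags). enol-1, enolase, was at 4.08-fold with 1008 tags and pyk-1, a pyruvate kinase gene, at 3.74-fold with 305 tags, while its paralogue pyk-2 was not named. ldh-1, lactate dehydrogenase, which turns the NADH made by GAPDH back into NAD, came nearest to the operon peak at 7.09-fold, with 1002 tags.

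**Figure D4:**
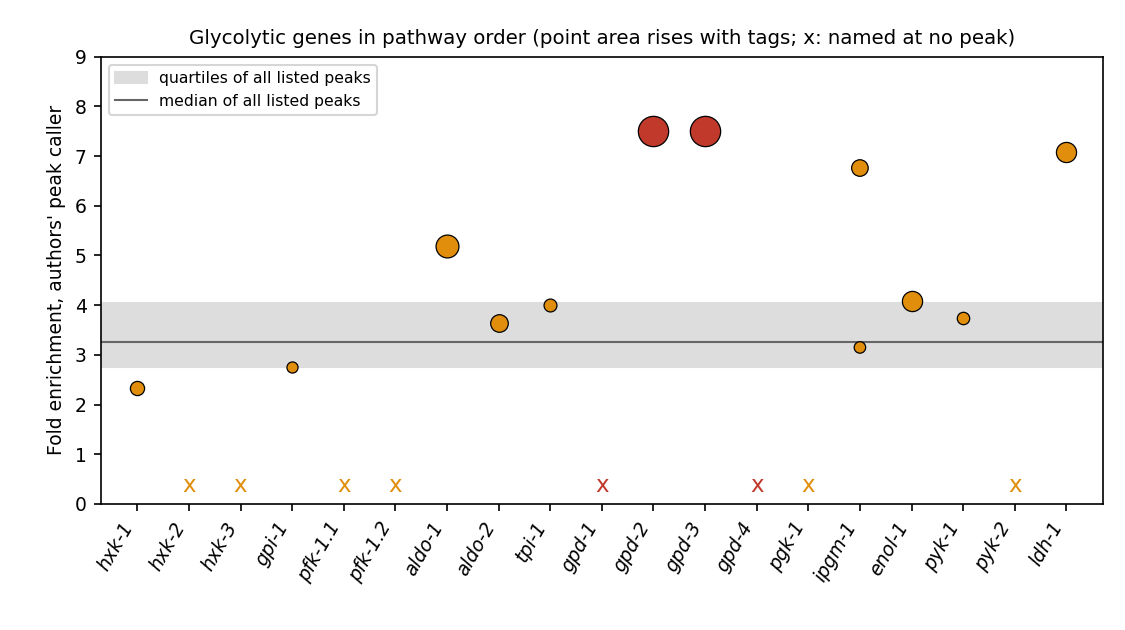
Fold enrichment (y axis) of the peaks at glycolytic genes in pathway order (x axis), with point area rising with antibody tags and an x at genes named at no peak. The grey band and line are the quartiles (2.75 and 4.04) and the median (3.26) of all listed peaks. gpd-2 and gpd-3 share 1 peak, also named for mai-1 and drawn at 7.5-fold at both gpd names. It lies above every other point, and gpd-1 and gpd-4 carry an x.

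The genes of gluconeogenesis, which shares GAPDH, had peaks that were low by fold. Of 5 genes, pyc-1, pyruvate carboxylase (2.52-fold, 842 tags), and pck-1, a phosphoenolpyruvate carboxykinase gene listed as W05G11.6 (2.82-fold, 414 tags), were named, and pck-2, pck-3 and fbp-1 were not. With locus names matched this is 2 of 5, against 4.53% of all protein-coding genes, in a list chosen with earlier results known. Both peaks were below the median of all peaks by fold, and both were above the median by tags, which was 325.

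For mai-1 the natural comparison is mai-2, its paralogue, and the nuclear genes of ATP synthase. mai-2 was named at a peak shared with B0546.4 on chromosome IV, of 2962 bp, 641 tags and 3.42-fold at a false discovery rate of 7.63%. Both inhibitor genes were thus named at peaks with 2 or more gene names, of which the list of 1005 held 100. With the other ATP synthase genes, 4 of 11 were named when locus names were matched, against 4.53% of all protein-coding genes on that rule. The remaining 3 were the subunit genes atp-1 (3.04-fold), atp-2 (2.62-fold) and atp-3 (4.49-fold). This list too was chosen with earlier results known, so the count is a description. The median of these 4 peaks was 3.23-fold, beside 3.26-fold for all peaks. atp-4, atp-5, asb-1, asb-2, asg-1, asg-2 and hpo-18 were not named.

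By fold, the operon peak stood just below F15D3.7 (7.57-fold), E04A4.3 (7.56-fold) and the glucuronosyltransferase gene ugt-19 (7.54-fold). Just below it were the nuclear receptor gene nhr-132 (7.48-fold), the ribosomal protein gene rpl-35 (7.44-fold) and F20B6.7 (7.31-fold). These 6 were all shorter and less tagged, with 365 to 1174 tags. When likeness was instead taken as the distance between rank shares of fold, score, tags and length, 4 measures of the same list, the 5 nearest peaks were an unnamed one on X (distance 0.0200), aqp-7 (0.0243), rpl-15 with K11H12.8 (0.0299), tir-1 (0.0316) and zk470.2 (0.0317). Of these 5, 3 were on X, which held 174 of the 1005 listed peaks. The 5 peaks held 1618 to 3080 tags at 6.56-fold to 9.96-fold. The likeness covers these 4 measures within 1 list, with the score of 3100 taken as listed, and no other trait of the peaks.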

How the data were processed

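The data are 1 peak list made from 1 antibody and 1 no-antibody library. Per the file headers, the authors called peaks with MACS 1.4.2 (p cutoff 1e-05, effective genome size 90000000 bp, 50-bp tags, a fragment size of 200 bp, at most 1 tag per position, larger library scaled towards the smaller). Per the submitters' processing notes the tools were BWA 0.7.5, Picard and MACS 1.4. No source used here names a genome build. Duplicate removal took 40.0% of 18329145 antibody tags and 20.3% of 13281029 control tags, per the file headers.

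The deposited list gives, per peak, a tag count, a fold enrichment (ratio), a false discovery rate in percent and a score whose heading was lost to a spreadsheet error. The score was read by its column position. No source used here says how the authors assigned gene names.

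Names were split at the slash, with case, bracketed comments and question marks ignored, and matched to RefSeq genes of WBcel235 on the same chromosome (Python 3.11.15, pandas 2.3.3, scipy 1.17.1, matplotlib 3.10.9), used for names and gene order alone. Only the matching of exact symbols was tested, on a simulated list. The splitting of names and the matching of locus names and synonyms were not part of that test. Ranks, tags per kb, exact intervals and counts were then computed. The genes named are the 5 members, genes of the 3 pathway lists at a peak, neighbouring peaks, and the peaks nearest by fold (3 a side) and by likeness (5); others are said to be picked later. Members and lists were chosen with earlier results of these data known. Promoter motifs and protein and promoter identity had been planned and were not run, since no sequence was used here.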

Additional observations from a re-analysis of the deposited data

How the results depend on the processing

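No paired analysis was possible because there was a single library on each side, which also left none to omit. The 3 operon genes were named in the 32 peaks whose false discovery rate was at most 5%, in the 137 at 5-fold or more, in the 503 at or above the median score, and with locus names and synonyms matched. They fell to 0 among the 831 peaks with 1 gene name, by construction. The operon peak, number 39 by fold, was number 3 by score as listed (shared), 6 by tags and 2 by tags per kb. By fold it was 11 of 174 on chromosome X alone and 29 of 320 among peaks of 2000 bp or more. Other glycolytic genes numbered 4 by symbol, 9 with locus names and synonyms, 1 at 5-fold or more and 0 at a rate of 5% or less. ATP synthase genes numbered 3 by symbol and 0 under both of those stricter limits. Gluconeogenic genes numbered 1 by symbol, 2 with locus names and 0 under both limits. The stricter limits leave few peaks, 13.6% of all listed peaks at 5-fold or more and 3.18% at a rate of 5% or less. From so few named genes, counts of 0 or 1 say little about a pathway. The 3 operon genes share 1 peak and pass or fail together. The share of all genes named under these limits was not computed. Both limits were applied with symbols alone, so aldo-1 and ipgm-1, listed by locus name, are not in those counts. Motif and identity alternatives were not run. Read as a Poisson count, the 2419 tags have an interval of 2324 to 2517, which leaves out the limit of 1 tag per position. Nothing here measures variation between worms.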
